A study of Mus musculus with 8 samples.

Results

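Ly6C-low cells are CD45+ CD11b+ cells of the conjunctiva that were negative for MHCII, positive for CD64 and low or negative for the monocyte marker Ly6C, the gate that the study calls macrophages. Female C57BL/6J mice of 10 weeks (the age in the sample labels) were kept in a non-stressed (NS) environment or were exposed to desiccating stress (DS) for 5 days. Under DS the mice drank scopolamine, a drug that blocks tear secretion, and lived in dry room air with a fan at the cage. Cells from both conjunctivae of 20 mice were pooled for each population, so 1 NS pool and 1 DS pool of Ly6C-low cells were compared, out of 8 pools in the series. No transgene or deletion is named for these mice. NS mice were kept at higher humidity with no air draft, so the drug, the dryness and the draft cannot be told apart. RNA was measured with a NanoString nCounter panel of 754 genes for myeloid and innate immunity, in which barcoded probes are counted without amplification.

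The genes described are the 102 of 754 whose raw count in at least 1 of the 2 pools exceeded a background limit, set at the mean + 2 SD over the 8 negative controls, probes that have no target. That limit was 15.9 counts in NS and 12.5 in DS. It was passed in both pools by 58 genes, in NS alone by 38 and in DS alone by 6. A gene that passed in NS alone had its higher count there through the filter itself, so the balance of genes in the 102 is not evidence of a direction. Just inside the limit in NS lay Itgal with 16 counts and 9 in DS, and just outside lay Pf4 with 15 and 10 counts and Nfkb1 with 15 and 11. Just inside the limit in DS lay Vsir, with 13 counts in DS and 10 in NS.

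Macrophages of barrier tissues take up debris and bind antibody-coated particles through Fc receptors, and they release chemokines that draw in other leukocytes. Resident tissue macrophages are known for scavenger receptors such as CD163 and the mannose receptor, for complement C1q and for apolipoprotein E. Genes such as Dusp1, Fosb, Jun and Atf3 answer within minutes to many stimuli.

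The total over the 754 genes was 5799 counts in the NS pool and 4056 in the DS pool. The positive control probes, which carry spiked RNA, had a geometric mean of 868 counts in NS and 988 in DS. The 102 genes held 3807 counts in NS and 2075 in DS, while the 652 genes below the limit held 1992 and 1981. The lower DS total lay in the genes above the limit, a split that the filter itself favours. The other genes were at background in both pools by definition, and of the 102 genes 38 passed in NS alone against 6 in DS alone. A lower count can come from fewer cells or from less RNA per cell, and these cannot be told apart in a pool. Raw counts are given first for each gene. The log2 ratio of DS over NS follows, after scaling to equal totals over the 754 genes, which adds 0.52 to each log2 ratio, with a 95% interval that is exact for the ratio of 2 counts. The interval covers counting error only, not the spread between mice or pools. With 1 pool per condition there was no test between conditions, and no p-value is given.

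Transcripts of the sort markers and of the genes given for these cells were examined first. Itgam, the gene of CD11b, had 31 counts in NS and 13 in DS, and Ptprc, the gene of CD45, had 44 and 12. Adgre1, the gene of the macrophage antigen F4/80, had 66 and 30 counts, and the metalloprotease gene Adam8 had 34 and 11. All 4 raw counts were higher in the NS pool, with intervals at equal totals that included 0 for Itgam and Adgre1, and the DS counts of Ptprc and Adam8 were below the DS limit. Fcgr1, the gene of CD64, had 6 and 4 counts, below the limit in both pools. The MHCII gene H2-Aa had 14 and 12 counts, below the limit, against 3419 and 2635 in the NS and DS pools of MHCII+ cells. The invariant chain gene Cd74 was above the limit with 24 and 29 counts. Ly6c1 had 7 counts in NS and 14 in DS. It had 8 and 16 in the NS and DS pools of Ly6C-high cells and 8 and 583 in those of Ly6C-inter cells. Its count thus did not set Ly6C-low cells apart from Ly6C-high cells. Markers of several other cell types lay below the limit in both pools, while 3 genes known from eosinophils (Ccr3, Siglecf and Alox15) were above it in NS. None of 5 dendritic cell genes measured (summed 9 and 9 counts), 8 neutrophil genes (14 and 19), 4 mast cell and basophil genes (6 and 13) and 4 fibroblast genes (11 and 8) passed the limit, and T and NK cell markers were not analysed here. No value of 0 occurs in the table, whose smallest value is 1.

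With equal totals, 22 of the 102 genes (21.6%) had an interval below 0, lower in DS, and 4 (3.92%) had one above 0. A log2 ratio of at least 1.5, the threshold that the study used, was reached downwards by 7 genes (6.86%) and upwards by 2 (1.96%). Without scaling 48 genes (47.1%) were lower and 1 (0.98%) was higher by the interval. When the totals were set equal over the 102 genes alone, which adds 0.88, 8 were lower and 11 were higher. The number of genes in each direction was therefore set largely by the scaling. The 8 genes with an interval below 0 under all 5 scalings tried (equal totals over all genes or over the 102, none, positive controls, and Ppia with Rpl19) were Rgs1, Cd84, Man2b1, Nfkbiz, Cebpb, Serpinb2, Ptprc and Ccr3. These were also the only genes with an interval below 0 when totals were set equal over the 102 genes. Fcgr2b was the 1 gene with an interval above 0 under all 5. For 10 of the 22 the limit was passed in NS alone, among them Rgs1, Cd84, Man2b1, Nfkbiz, Nfkbia, Ptprc and Ccr3. Of the 4 higher genes, Ly6c1 (7 and 14 counts) passed the limit in DS alone. Ly6c1 was also 1 of the 2 genes that reached 1.5 upwards. In the 58 genes above the limit in both pools, 12 were lower and 3 higher, with a median log2 ratio of -0.17, against -0.44 in the 102.

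**Figure D1:**
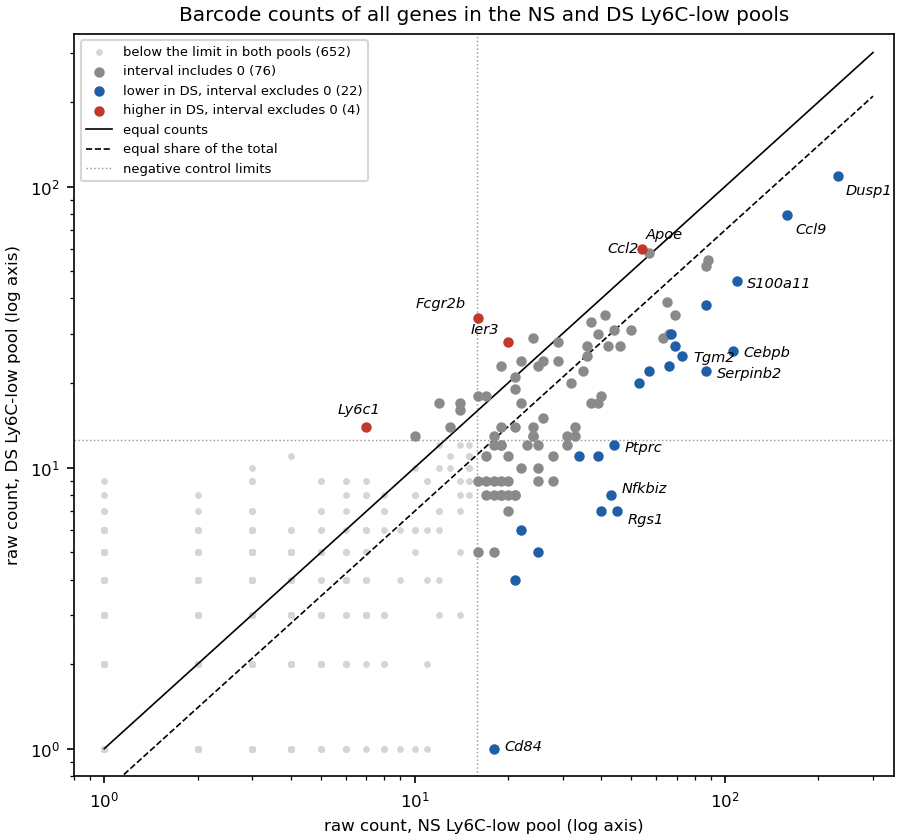
Raw barcode counts of each gene in the NS pool (x axis, log scale) and the DS pool (y axis, log scale) of Ly6C-low cells, 1 pool each. Points are coloured by the 95% interval of the ratio at equal totals, the solid line marks equal counts, the dashed line an equal share of the total, and the dotted lines the negative control limits. Dusp1 (231 and 109) and Ccl9 (159 and 79) lie below the dashed line, and Fcgr2b (16 and 34) lies above the solid line.

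Of the receptors for IgG, Fcgr2b was higher in DS. Fcgr2b, which encodes the inhibitory Fc receptor of macrophages, had 16 counts in NS and 34 in DS, giving a log2 ratio of 1.603 (0.71 to 2.56), or 3.04-fold, and of 1.09 (0.19 to 2.04) without scaling. The NS count lay at the limit. Fcgr3, an activating receptor, had 25 and 12 counts, for a log2 ratio of -0.54 (-1.67 to 0.50). Fcgr3 passed the limit in NS alone. Tyrobp, the adaptor DAP12 of several activating receptors, had 67 and 30 counts. Fc receptor genes have similar sequences, and probe sequences were not used here.

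Macrophage identity genes above the limit had intervals that included 0, apart from Apoe. Of 18 such genes listed 16 were measured and 10 were above the limit, 7 with a positive and 3 with a negative log2 ratio, and their median was 0.34. Apoe, the gene of apolipoprotein E, had 54 counts in NS and 60 in DS, for a log2 ratio of 0.67 (0.11 to 1.23), which was 0.15 (-0.40 to 0.71) without scaling and -0.04 with positive controls. Cd163, a scavenger receptor for haemoglobin, had 22 and 24 counts (0.64, -0.26 to 1.54). Mrc1, the mannose receptor, had 25 and 23 counts (0.40, -0.49 to 1.27). The subunits of C1q, which starts the classical complement pathway, had 29 and 24 counts for C1qa, 46 and 27 for C1qb and 41 and 35 for C1qc, with log2 ratios of 0.24, -0.25 and 0.29 and intervals that included 0. Cd14, a coreceptor for bacterial lipopolysaccharide, had 12 and 17 counts and passed the limit in DS alone. The scavenger receptor Cd36 had 26 and 24. Adgre1 stood lowest in the list, at -0.62 (-1.30 to 0.02). The growth factor receptor gene Csf1r had 18 and 12 counts (-0.07, -1.26 to 1.06) and passed the limit in NS alone. Below the limit, Cx3cr1 had 10 counts and 1, and Mertk had 1 and 4. In sum the 10 genes had 332 counts in NS and 275 in DS, which was 5.73% and 6.78% of the total. Of all 102 members, 29 had a positive and 73 a negative log2 ratio. Without scaling the log2 ratios of C1qa, C1qc, Mrc1 and Cd36 were negative.

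Early response genes differed in direction from each other. Of 12 measured, 8 were above the limit and summed to 538 counts in NS and 270 in DS, and their median log2 ratio was -0.52, near the -0.44 of all 102 members. With 2 of 8 intervals below 0, the list was also near the 21.6% of all members. The intervals of Cebpb and Dusp1 were below 0 and that of Ier3 was above. Cebpb, a transcription factor of macrophage activation, had 106 and 26 counts, giving a log2 ratio of -1.51 (-2.19 to -0.88), 2.85-fold lower. Dusp1, a phosphatase that shuts off MAP kinases, was the most counted gene in both pools, with 231 and 109 counts (-0.57, -0.91 to -0.23). With totals set equal over the 102 genes the log2 ratio of Dusp1 was -0.21, with an interval that included 0. Fosb had 69 and 35 counts, Ptgs2, the inducible cyclooxygenase, had 33 and 13, and Hif1a, which passed the limit in NS alone, had 19 and 8. Jun had 21 counts in each pool and Atf3 had 39 and 30. Ier3, an early gene with roles in cell survival, had 20 and 28 counts, so its log2 ratio was 1.001 (0.12 to 1.91), and 0.49 (-0.39 to 1.39) without scaling.

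The NF-kB inhibitor genes Nfkbiz and Nfkbia had some of the lowest ratios. Both passed the limit in NS alone, so that their lower raw count in DS followed from the filter. NF-kB is held in the cytoplasm by IkB proteins, and it switches on several of its own inhibitors. Nfkbiz, which encodes the nuclear inhibitor and cofactor IkB-zeta, had 43 counts in NS and 8 in DS, so the log2 ratio was -1.91 (-3.21 to -0.81). Nfkbia, the gene of IkB-alpha, had 21 and 4 counts (-1.88, -3.88 to -0.31). Tnfaip3, the deubiquitinase A20, had 50 and 31 counts (-0.17, -0.87 to 0.50) and did not share this size. Tnf was below the limit, with 11 and 9 counts, as was Nfkb1. Of 10 genes of a TNF and NF-kB list measured, 3 were above the limit, all with a negative log2 ratio, as had 73 of the 102 members. That of Tnfaip3 was 0.19 with totals set equal over the 102 genes.

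The promoters of Nfkbia and Dusp1 are shown because both genes had lower ratios and carry textbook response elements. The sequences are the 250 bases before the RefSeq start of each gene on GRCm38.p6, minus strand, at chr12:55492648-55492897 for Nfkbia and at chr17:26508473-26508722 for Dusp1. Capitals mark a match to the NF-kB consensus in Nfkbia, 29 bases before the start, and the cyclic AMP response element TGACGTCA in Dusp1, 143 bases before the start.
Nfkbia: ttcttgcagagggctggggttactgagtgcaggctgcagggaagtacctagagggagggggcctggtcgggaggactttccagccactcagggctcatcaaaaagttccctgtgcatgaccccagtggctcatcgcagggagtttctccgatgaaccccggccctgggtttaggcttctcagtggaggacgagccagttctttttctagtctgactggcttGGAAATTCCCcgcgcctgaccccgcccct
Dusp1: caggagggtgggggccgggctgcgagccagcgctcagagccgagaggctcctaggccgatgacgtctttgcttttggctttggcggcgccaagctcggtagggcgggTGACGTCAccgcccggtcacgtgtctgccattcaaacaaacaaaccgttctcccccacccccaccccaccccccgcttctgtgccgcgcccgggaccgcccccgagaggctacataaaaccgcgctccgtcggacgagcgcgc
Both strands were searched in windows from 250 bases before to 50 after each start, and the palindromic TGACGTCA reads the same on both. The NF-kB consensus was found in 8.46% of 32851 promoters and in 20.4% of the 93 promoters of the 77 members that had one. TGACGTCA was found in 1.79% and 2.15%. The members come from a panel of immune genes, and the share over the other genes of that panel was not computed. A match is a run of letters and no measure of binding.

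**Figure D2:**
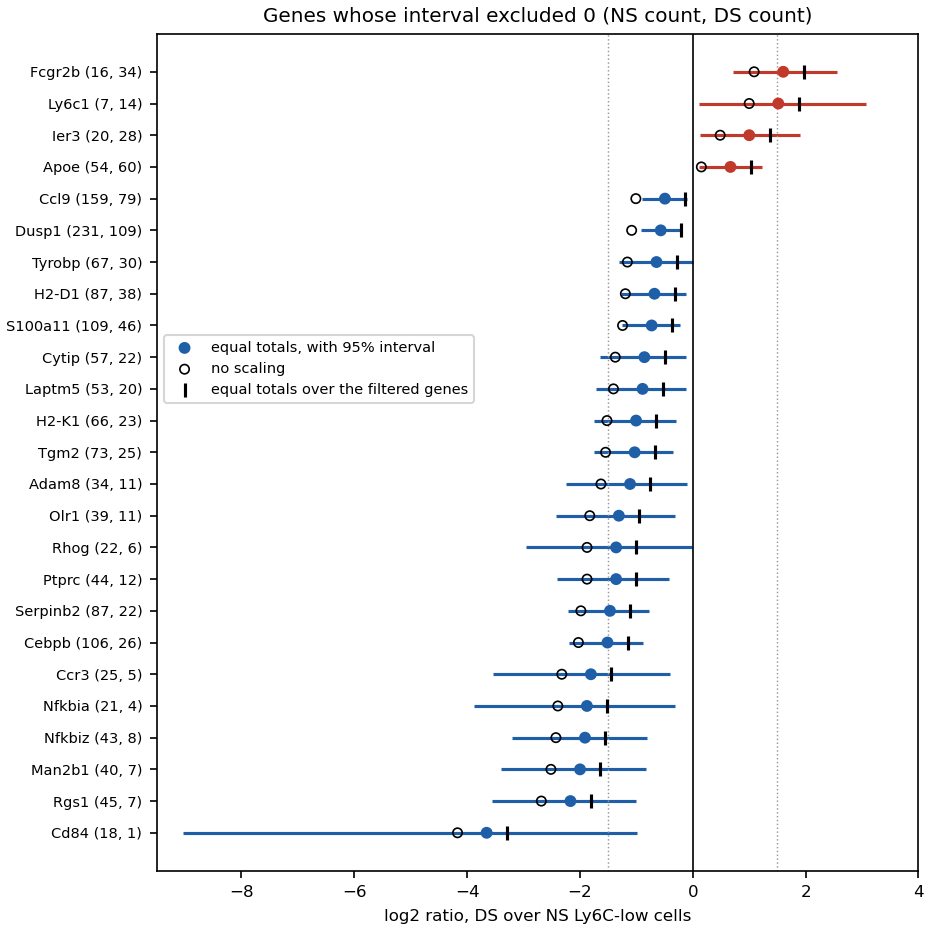
Log2 ratio of DS over NS (x axis) for 25 of the 26 genes whose 95% interval at equal totals excluded 0, with the NS and DS counts behind each name. Filled points and bars are the ratio and interval at equal totals, open circles the ratio without scaling, short vertical bars the ratio with totals set equal over the 102 genes, and dotted lines mark 1.5 in each direction. Under each of these scalings Fcgr2b stays above 0 and Rgs1 below it.

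Several other genes found in leukocytes had lower counts in DS, as had 86 of the 102 members, while 15 members had higher counts. Cd84, Rgs1, Man2b1, Ptprc and Rhog passed the limit in NS alone, so that their lower raw count in DS followed from the filter. Cd84, a self-binding receptor of the SLAM family, had 18 counts in NS and 1 in DS. Its ratio of -3.65 rests on that single count, with an interval of -9.03 to -0.99. Rgs1, which damps signals from chemokine receptors, had 45 and 7 counts (-2.17, -3.56 to -1.01), 4.50-fold lower. Man2b1, a lysosomal mannosidase, had 40 and 7 counts (-1.999, -3.40 to -0.82). Ptprc, at -1.36 (-2.42 to -0.41), is a phosphatase found on all leukocytes. Laptm5, a lysosomal membrane protein of blood cells, had 53 and 20 counts, Cytip, which regulates leukocyte adhesion, had 57 and 22, and the small GTPase Rhog had 22 and 6. Cybb, the membrane subunit of the phagocyte oxidase, had 32 and 20 counts (-0.16, -1.05 to 0.69).

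Several genes were counted more often in NS Ly6C-low cells than in any other NS population, although the pool of NS MHCII+ cells held 39677 counts in all. There were 10 such genes among the 102, namely Alox15, Ccr3, Cd80, Itgal, Olr1, Rgs1, Serpinb2, Siglecf, Tgm2 and Vegfa, and all 10 had a negative log2 ratio at equal totals. They were chosen on the NS count that also enters the ratio, so the direction is a description. Itgal, with 16 counts, had 15 in NS MHCII+ and NS Ly6C-inter cells. It had 14 in NS Ly6C-high cells, whose total was 2728 counts. Ccr3, Olr1, Serpinb2, Siglecf and Tgm2 were also highest in Ly6C-low cells among the 4 DS populations. Of these, Serpinb2 and Tgm2 were above the limit in DS. Ccr3, Siglecf and Olr1 had 5, 7 and 11 counts there, below the limit, so their rank in DS was among background counts. Serpinb2, an inhibitor of plasminogen activators, had 87 counts in NS and 22 in DS (-1.47, -2.21 to -0.78), against 29 and 11 in Ly6C-inter cells. Tgm2, a protein-crosslinking transglutaminase, had 73 and 25 counts (-1.03, -1.75 to -0.36), against 20 and 10. Olr1, a receptor for oxidised lipoprotein, had 39 and 11 counts (-1.31, -2.42 to -0.32), against 13 and 9.

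Within that set were genes that are best known from eosinophils, which also carry CD11b and F4/80. Ccr3, the eotaxin receptor, had 25 counts in NS and 5 in DS (-1.81, -3.55 to -0.40). Siglecf, a lectin of eosinophils and alveolar macrophages, had 20 and 7 counts (-0.999, -2.48 to 0.30). Alox15, a lipoxygenase of eosinophils and some macrophages, had 25 and 9 counts (-0.96, -2.24 to 0.19). In the other 6 pools Ccr3 had 1 to 5 counts, Siglecf 1 to 6 and Alox15 1 to 13. Alox15 had 8 counts in NS and 13 in DS in Ly6C-inter cells, below the limits there. Its DS count there was above the 9 in DS Ly6C-low cells. The granule protein genes Epx and Prg2 had 1 count each in NS and 2 and 4 in DS, and Il5ra had 6 and 1, all below the limit. A list of these 6 genes, made after the counts were seen, summed to 78 counts in NS and 28 in DS. The dump channel of the sort held antibodies against NK cells, granulocytes bearing Ly6G, T cells and B cells. The part of other cells in the ratios of Adgre1, Itgam and Ptprc was not tested.

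Chemokine genes showed a split between ligands. All 17 CC chemokine genes listed were measured, 6 were above the limit and 1 of these, Ccl9, had an interval below 0. Ccl9, a CC chemokine of mouse macrophages, had 159 counts in NS and 79 in DS (-0.49, -0.90 to -0.10), and Ccl6 had 40 and 18 (-0.64, -1.53 to 0.20). The ligands of CCR2, which recruits monocytes, had nearly equal raw counts. Ccl2 had 57 and 58 counts (0.54, -0.01 to 1.09), Ccl12 had 17 and 18, and Ccl7 had 14 and 16. Together Ccl2, Ccl7 and Ccl12 had 88 and 92 counts and Ccl3, Ccl6 and Ccl9 had 216 and 108. These sets were formed after the counts were seen, and Ccl7 passed the limit in DS alone and Ccl3 in NS alone. Ccr2 itself had 1 count in each pool. Of 12 CXC chemokine genes measured Cxcl2, which attracts neutrophils, was the 1 above the limit, with 87 and 52 counts (-0.23, -0.75 to 0.29). Il1b had 39 and 17 counts (-0.68, -1.60 to 0.17), and the other 11 genes of the IL-1 and inflammasome list that were measured lay below the limit, Nlrp3 at 6 and 4 and Casp1 at 7 and 4.

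Class I genes and S100a11 were lower at equal totals. H2-K1 had 66 counts in NS and 23 in DS (-1.01, -1.76 to -0.30), and H2-D1 had 87 and 38 (-0.68, -1.27 to -0.11). These class I genes are close relatives whose probes may share transcripts. Cd80, a ligand for T cell costimulation, had 37 and 17 counts (-0.61, -1.53 to 0.26). Cd74, at 0.79 (-0.04 to 1.63), was the 1 gene of 5 antigen presentation genes above the limit with a positive ratio. The calcium-binding protein gene S100a11 had 109 and 46 counts (-0.73, -1.26 to -0.22). S100a10 had 37 and 33 (0.35, -0.37 to 1.07), S100a4 had 33 and 14, and Crip1 had 65 and 39. Integrin and adhesion genes were above the limit in 3 of 12 measured, with a median of -0.74, and no interval excluded 0. They were Itgam, Itgal and Itgb1, the beta chain of many matrix receptors, with 31 and 12 counts (-0.85, -1.95 to 0.15). Of 13 matrix and protease genes measured 4 were above the limit, with a median of -0.41, and the interval of Adam8 was below 0, at -1.11 (-2.24 to -0.10). Plaur, the urokinase receptor, had 14 and 17 counts, and the lysosomal protease gene Ctsd had 44 and 31. Retnla, a marker of alternative activation, had 88 and 55 counts (-0.16, -0.68 to 0.34). Of 9 interferon response genes measured none passed the limit, with at most 12 counts in NS and 10 in DS, so a change of that response was not detectable at this depth. The reference genes Ppia and Rpl19 had 19 and 14 and 36 and 27 counts, with log2 ratios of 0.08 and 0.10.

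**Figure D3:**
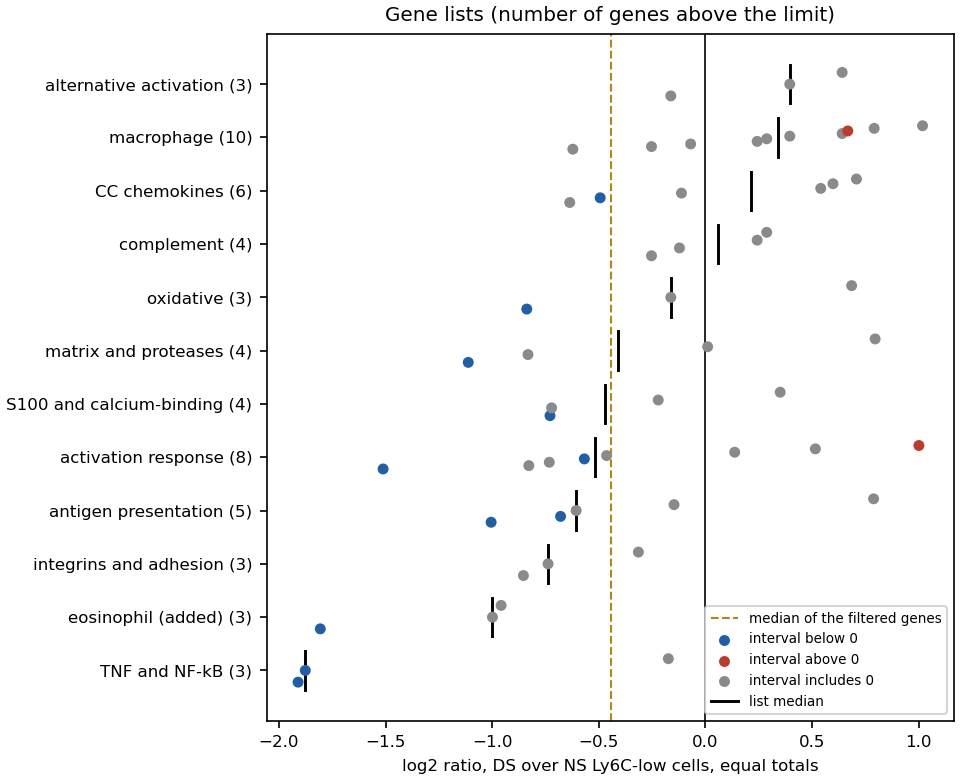
Log2 ratio of DS over NS in Ly6C-low cells at equal totals (x axis) for the genes above the limit in each gene list with at least 3 such genes (y axis, number of genes in brackets). The activation response list holds the early response genes. Each point is a gene, coloured by whether its 95% interval excludes 0, the black bar is the list median and the dashed line the median of the 102 genes, -0.44. The macrophage list has a median of 0.34, and the low median of the TNF and NF-kB list rests on Nfkbiz and Nfkbia, which passed the limit in NS alone.

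Ly6C-low cells were then set beside the other populations, each compared between its own NS and DS pool. The members were filtered on their Ly6C-low counts, so ratios in the other populations are free of that selection while those in Ly6C-low cells are not. For the 102 genes in 3 populations, 306 exact intervals of the difference between 2 log2 ratios were computed, uncorrected for their number. Fcgr2b was the 1 gene whose ratio was higher in Ly6C-low cells than in each of the other populations under the 3 scalings compared. It had 43 counts in NS and 39 in DS in Ly6C-inter cells and 232 and 165 in MHCII+ cells. In Ly6C-high cells it had 12 and 5 counts, below the limits of 15.1 and 14.0 there, so that this comparison was with a background level. At equal totals its ratio in Ly6C-low cells exceeded that in MHCII+ cells by 1.71 (0.75 to 2.71) and that in Ly6C-inter cells by 2.9996 (1.86 to 4.17).

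Against MHCII+ cells the ratio in Ly6C-low cells was lower for 8 genes under the 3 scalings. They were Cd84, Cebpb, Man2b1, Nfkbiz, Ptprc, Rgs1, S100a11 and Serpinb2. In Ly6C-low cells Cd84, Man2b1, Nfkbiz, Ptprc and Rgs1 passed the limit in NS alone. Serpinb2 had 7 and 9 counts in MHCII+ cells, below the limits there, so that this comparison was with a background level. Cebpb had 131 counts in NS and 113 in DS in MHCII+ cells, and the difference was -1.69 (-2.46 to -0.94). Rgs1 had 28 and 34 counts there, and the difference was -2.84 (-4.42 to -1.38). Nfkbiz had 154 and 106 counts, with a difference of -1.76 (-3.11 to -0.57). Higher in Ly6C-low cells were Apoe, Ccl2, Ccl12 and Fcgr2b. Ccl2 had 562 and 369 counts in MHCII+ cells, and the difference was 0.76 (0.17 to 1.35).

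Against Ly6C-inter cells the result hung on the scaling. The DS pool of those cells held 14201 counts, with 1436 for Emp1, 891 for S100a11 and 583 for Ly6c1, while in Ly6C-low cells Emp1 had 29 counts in NS and 28 in DS. At equal totals 28 genes had a higher and 10 a lower ratio in Ly6C-low cells, and without scaling 2 were higher and 40 lower. Under the 3 scalings Ccl7 and Fcgr2b were higher, and Emp1, H2-D1, Itgam, Ly6c1, Nfkbiz, S100a10 and S100a11 were lower. Of these, Ccl7 and Ly6c1 passed the limit in Ly6C-low cells in DS alone and Nfkbiz in NS alone, so the filter leans the differences of Ccl7 and Nfkbiz in the direction given. In Ly6C-high cells 43 of the 102 genes were above the limit of at least 1 pool, and Fcgr2b was not. Against these cells Fcgr2b was higher and Cstb, Ptprc and S100a11 were lower under the 3 scalings. In Ly6C-low cells Cstb and Ptprc passed the limit in NS alone, so the filter leans their differences the same way.

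**Figure D4:**
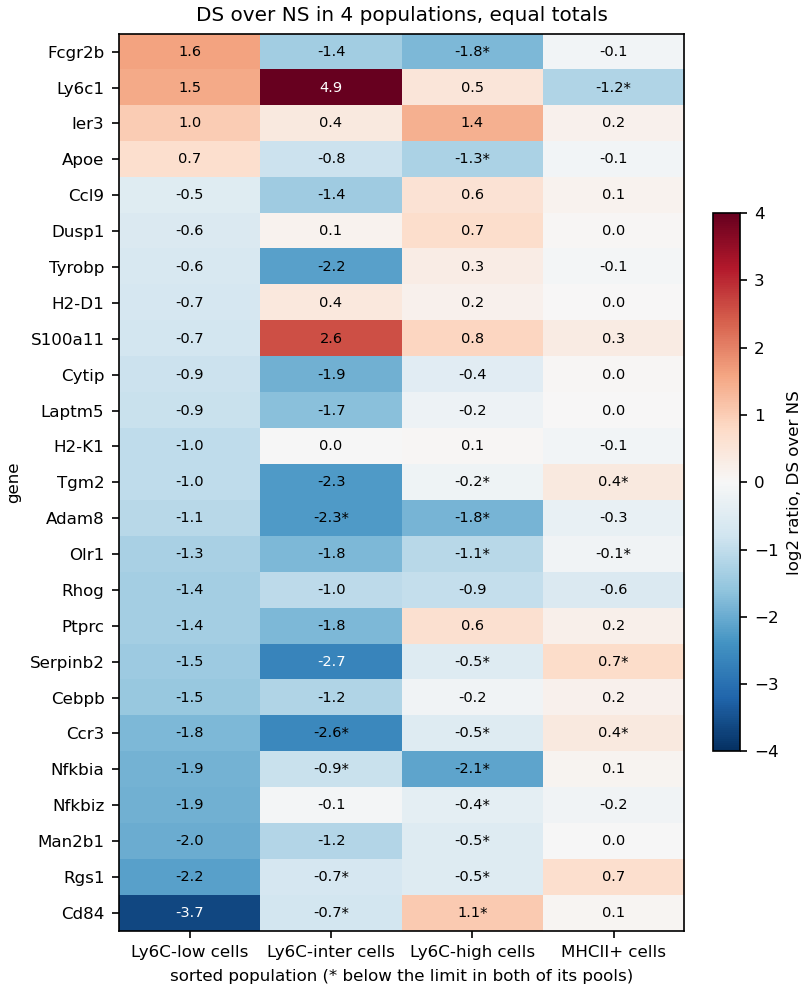
Log2 ratio of DS over NS at equal totals in each sorted population (columns) for 25 of the 26 genes whose interval excluded 0 in Ly6C-low cells (rows), with colours from blue (lower in DS) to red (higher in DS), capped at 4 in each direction. An asterisk marks a gene below the negative control limit in both pools of that population. Fcgr2b is positive in Ly6C-low cells and negative in the other 3 columns. Its ratio in MHCII+ cells was near 0, at -0.10 (-0.40 to 0.19), and in Ly6C-high cells it was below the limit. In Ly6C-inter cells it was -0.14 (-0.80 to 0.52) without scaling. S100a11 is negative in Ly6C-low cells and positive in the other 3.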

How the data were processed

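Values were read from a table that the authors deposited as raw barcode counts per probe, 1 column per pool. Per the study methods, total RNA was hybridized to the nCounter Mouse Myeloid Innate Immunity V2 codeset and counted on a digital analyzer, and nSolver was used for quality control, with normalization settings not given in the sources used here. The deposited counts cover 754 genes, 8 negative and 6 positive control probes, and hold no normalization step. Totals were 5799 counts (NS) and 4056 (DS), so most genes have a few counts and wide intervals. Log2 ratios, exact binomial (Clopper-Pearson) 95% intervals of count ratios and exact conditional intervals of odds ratios between populations were computed with Python 3.11.15, numpy 2.4.6, pandas 2.3.3 and scipy 1.17.1, and figures with matplotlib 3.10.9. Intervals were tested on simulated data. No fit across genes and no p-value was used. Named genes were the given and sort markers, Ppia and Rpl19, the 10 most counted genes of each pool, genes with an interval that excluded 0 or past 1.5, and up to 4 genes a list; other names were chosen after their values were seen. Some members count in the totals but are not reported here by name. The comparison, members and gene lists were chosen with earlier results of these data known. Of the members all 102 matched a RefSeq symbol (GRCm38.p6). The alternatives were other scalings, filters, thresholds, interval levels and background subtraction.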

Additional observations from a re-analysis of the deposited data

Results flagged for a closer look

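S100a11 was lower in DS in Ly6C-low cells (109 counts in NS and 46 in DS) and higher, with an interval above 0, in each of the other populations at equal totals. The log2 ratio in Ly6C-low cells was lower by -3.32 (-3.97 to -2.67) than in Ly6C-inter cells (62 and 891 counts), by -1.57 (-2.61 to -0.56) than in Ly6C-high cells (17 and 44) and by -1.05 (-1.68 to -0.44) than in MHCII+ cells (165 and 158), where the ratio without scaling was -0.06 (-0.39 to 0.26). In Ly6C-low cells the log2 ratio with totals of the 102 genes was -0.37 for S100a11 and -0.32 for H2-D1, with intervals that included 0. H2-D1 went the other way from Ly6C-inter cells (73 and 235 counts there), with a difference of -1.11 (-1.82 to -0.41). Fcgr2b and Apoe were higher in DS in Ly6C-low cells and lower in Ly6C-inter cells at equal totals, with differences of 2.9996 (1.86 to 4.17) and 1.52 (0.87 to 2.17). In Ly6C-inter cells 57 of the 102 members had an interval below 0 at equal totals, against 5 without scaling. Without scaling the difference was 1.23 (0.08 to 2.40) for Fcgr2b and -0.26 (-0.90 to 0.40) for Apoe. Apoe had 141 and 187 counts in Ly6C-inter cells and was higher in DS there without scaling, at 0.41 (0.08 to 0.73). Fcgr2b was at -0.14 (-0.80 to 0.52) there without scaling. These genes were singled out because, at equal totals, both ratios and their difference had intervals that excluded 0, in opposite directions. Each interval covers the counting error of 4 pools, and the difference between conditions was not tested, since each population had 1 pool per condition.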

How the results depend on the processing

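No paired analysis was possible because each condition had 1 pool. At equal totals 22 genes were lower and 4 higher by the interval. The numbers lower and higher were 48 and 1 without scaling, 61 and 1 with positive controls, 8 and 11 with totals set equal over the 102 genes, 25 and 4 with Ppia and Rpl19, 13 and 1 with 99% intervals, and 12 and 3 among the genes above the limit in both pools. Without a filter 23 genes were lower and 23 higher. Past 1.5, 7 genes were lower and 2 higher. These numbers became 18 and 0 without scaling, 29 and 0 with positive controls, 8 and 1 with Ppia and Rpl19, 21 and 5 after subtraction of the negative control mean, 7 and 4 with the highest negative control as the limit, 1 and 1 above the limit in both pools, 21 and 186 without a filter, 17 and 4 at a threshold of 1, and 6 and 1 with 1 added to the scaled counts. The median log2 ratio of -0.44 was -0.96 without scaling, -1.15 with positive controls, -0.26 with the highest negative control as the limit, -0.17 above the limit in both pools and -0.083 with totals of the 102 genes. It was 0.52 over all 754 genes, whose median raw ratio was 0. Without the 5 most counted genes in the totals it was -0.49. Beside the other populations, the numbers of members with a higher and a lower ratio in Ly6C-low cells moved from 28 and 10 to 2 and 40 without scaling (Ly6C-inter cells), from 4 and 6 to 1 and 34 (Ly6C-high cells) and from 4 and 21 to 4 and 25 (MHCII+ cells). With totals of the 102 genes they were 39 and 7, 6 and 3, and 16 and 8. These settings for populations, and the totals of the 102 genes for single genes, were added after seeing the data. The sign of the log2 ratio turned in 16 of 62 named genes with positive controls (among them Ccl2, Ccl12, Cd163 and Mrc1), in 11 without scaling, in 9 with totals of the 102 genes, in 6 after background subtraction, in 2 with Ppia and Rpl19, in 1 without the 5 most counted genes and in 0 with 1 added. Of the genes whose interval at equal totals excluded 0, Apoe turned, to -0.035 with positive controls. At this depth a gene with fewer than 16 counts in NS and 13 in DS lay below the limit.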
